A study of Mus musculus with 10 samples.

Results

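The genes described here encode chains of collagen, proteins that fold or glycosylate those chains, fibronectin and smooth muscle actin. They are Col1a1, Col1a2, Col3a1, Col4a1, Col4a2, Serpinh1, Colgalt1, Colgalt2, Fn1 and Acta2, 10 of the 55401 gene identifiers counted. They were chosen by name, and each symbol matched 1 identifier in the GENCODE M21 annotation of GRCm38. The RNA came from Neuro2a, a mouse neuroblastoma line labelled wild-type, after plasmid transfection, and was sequenced in bulk. In the CRISPR arm, 3 libraries came from cells given dCas9-SCN9A, a Cas9 that cannot cut DNA aimed at the sodium channel gene SCN9A, and 3 from its control dCas9-empty. In the zinc-finger arm, 2 libraries came from cells given ZF-SCN9A, an engineered DNA-binding protein aimed at the same gene, and 2 from cells given a plasmid for the red fluorescent protein mCherry, which serves here as its control. The labels name no animals, clones or separate cultures, so the p-values measure the spread between these libraries, which may be technical.

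Collagen chains are made in the endoplasmic reticulum, where they wind into a triple helix whose repeating triplets each begin with glycine. Before winding, the chains are hydroxylated and some hydroxylysines receive galactose, and a chaperone binds the folded helix in the endoplasmic reticulum. Types I and III form fibrils in connective tissue, type IV forms the sheet of basement membranes, and fibronectin is a secreted glycoprotein that links cells to this matrix. Smooth muscle actin is the actin of contractile cells and of activated fibroblasts.

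The libraries of the dCas9 arm held 15.4 to 19.0 M gene counts and those of the zinc-finger arm 4.41 to 7.48 M (M stands for mega). Scn9a, the target of both repressors, stood at 76.9, 83.2 and 79.7 CPM (read counts scaled to one common library total) with dCas9-empty and at 31.5, 31.6 and 28.9 with dCas9-SCN9A. In the zinc-finger arm its levels were 60.2 and 54.2 CPM with mCherry, and 18.1 and 15.0 with ZF-SCN9A. Both decreases passed the quasi-likelihood test of edgeR after Benjamini-Hochberg adjustment (log2 fold change -1.38 ± 0.07 SE, adjusted p = 2.24e-09, and -1.76 ± 0.14, adjusted p = 1.71e-34). Markers of neuroblastoma and sympathoadrenal cells summed to 2346 to 3037 CPM in every library. Of 10 fibroblast markers other than the collagens, 7 had a mean under 1 CPM in each group, and Twist2 had no count in any library. Group means of the rest were 10.89 to 14.75 CPM for Pdgfrb, 6.17 to 9.50 for Pdgfra and 1.51 to 2.48 for Dcn.

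The libraries numbered 1 in both dCas9 groups stood apart for some of these genes. Col3a1, a chain of fibrillar type III collagen, had 67 and 76 counts in them and 0 or 1 in the other 4 dCas9 libraries. Col1a2, a chain of type I collagen, had 40 and 53 counts in them and 1 or 2 in the other 4. A search made after these values were seen, for genes with at least 10 counts in both libraries of 1 number and at most 2 in each of the other 4, found 8 genes for number 1 and 0 each for numbers 2 and 3. Besides Col3a1 and Col1a2 they were Col5a1, the matrix protein Tnc, the lysozyme Lyz2, the homeobox gene Otx2, the ubiquitin ligase Nedd4l and the pseudogene Gm8648. The plasmid entry for mCherry, which neither dCas9 group was given, had 7 and 9 reads in these libraries and 0 in the other 4. Stray plasmid reads were also present in the zinc-finger arm, with 59 and 11 mCherry reads in the ZF-SCN9A libraries and 35 and 14 zinc-finger reads in the mCherry libraries. The summed fibroblast markers spanned 19.66 to 20.95 CPM over all dCas9-empty libraries and 17.07 to 20.77 over all dCas9-SCN9A libraries. Most of each sum came from Pdgfrb (means 10.89 and 11.13 CPM) and Pdgfra (7.64 and 6.17), so it says little on the low markers. Of these, all dCas9 counts of Thy1 (1 and 3) and Lum (1 and 2) fell in the libraries numbered 1, but those of Fap (2 and 5) did not. Below the cut-off of the search, all dCas9 counts of Lox (7 and 13), Col6a3 (7 and 13) and Col5a2 (5 and 8) also fell there. What links these values was not tested. The dCas9 changes of the tested genes among the 10 are given with and without both libraries.

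**Figure D1:**
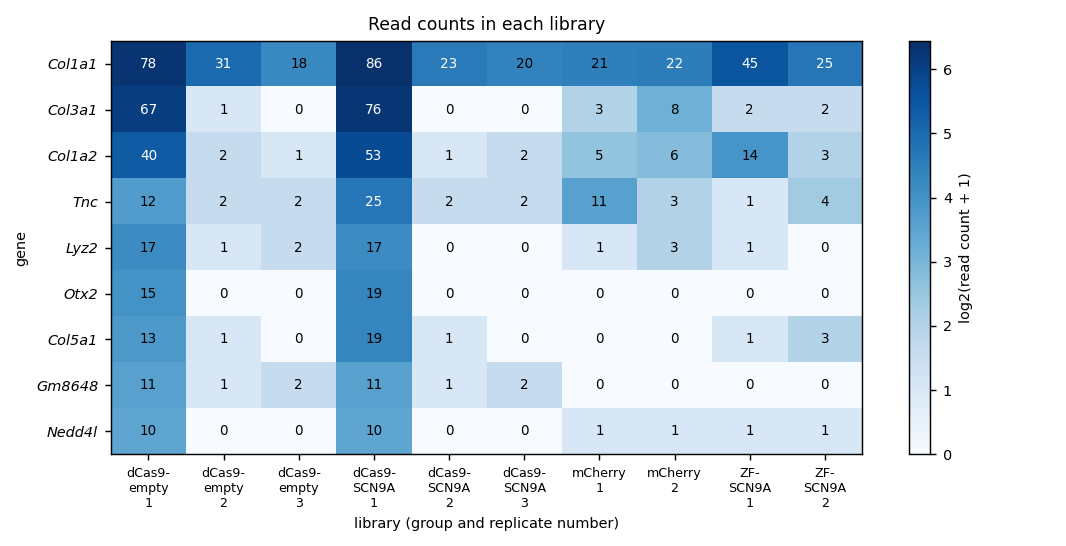
Read counts (number in each cell, shade on a log2 scale) of Col1a1 and of the 8 genes found by the search, one column per library. The columns of replicate 1 of both dCas9 groups are dark throughout, and the counts of Otx2 are 15 and 19 there and 0 in all other libraries.

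The reference transcripts of the collagen chains show the repeat that their genes share, and the stretches below set a fibrillar chain beside the type IV chains. Each is the first 90 coding bases, 5′ to 3′, of the longest run in which GGN, the codon for glycine, opens each triplet of codons, and the capitals mark those codons. They are spliced sequences from GENCODE M21 transcripts on GRCm38. The exons of the first lie within chr11:94939451-94939939 on the plus strand, those of the second within chr8:11247024-11267614 on the minus strand, and those of the third within chr8:11429447-11431247 on the plus strand.
Col1a1: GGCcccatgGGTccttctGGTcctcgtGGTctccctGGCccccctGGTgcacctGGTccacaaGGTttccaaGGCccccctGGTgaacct
Col4a1: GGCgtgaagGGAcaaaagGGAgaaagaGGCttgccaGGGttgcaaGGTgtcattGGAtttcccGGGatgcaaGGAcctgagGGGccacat
Col4a2: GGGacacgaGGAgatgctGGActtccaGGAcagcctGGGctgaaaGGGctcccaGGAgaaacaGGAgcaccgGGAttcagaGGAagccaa

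The run lasted 338 triplets in Col1a1, 339 in Col1a2 and 344 in Col3a1, but at most 40 in Col4a1 and 66 in Col4a2, where it is interrupted. GGN made up 26.8% to 28.6% of codons in all 5 chains and 3.68% to 8.2% in the other 5 genes. Despite the repeat, no stretch of 100 bases of Col1a1, Col1a2, Col4a1 or Col4a2 occurred in a transcript of another gene. Over their aligned coding bases Col4a1 and Col4a2 were 58.1% identical, and Col1a1 was 66.9% identical to Col1a2 and 64.1% to Col3a1. Acta2 had no shared stretch of 100 bases either, although it belongs to a family of similar actins. Of Colgalt1, 12.7% of such stretches also occurred in Unc13a, a neighbour on the other strand, and the counts did not separate strands. The shares were 1.83% for Fn1 (with the antisense gene Apol7d) and 0.769% for Col3a1 (with the microRNA gene Gm47302).

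Col4a1 (chr8:11198423-11312826, minus strand) and Col4a2 (chr8:11312805-11449287, plus strand) are neighbours transcribed away from each other. Their first exons share 22 bases at chr8:11312805-11312826, shown on the plus strand because reads in them cannot be assigned to 1 of the genes.
Shared first-exon bases: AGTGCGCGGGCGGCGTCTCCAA

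Levels differed widely between the genes. Per kilobase of annotated exon, the mean level in dCas9-empty was 81.0 CPM for Col4a2, 77.6 for Fn1, 39.0 for Col4a1 and 36.8 for Colgalt1. On the same scale it was 3.77 for Acta2, 2.69 for Serpinh1, 0.729 for Colgalt2, 0.367 for Col1a1, 0.133 for Col3a1 and 0.0662 for Col1a2. No fibrillar chain among the 10 genes had more than 86 counts in any library. Together the 10 genes took 0.167% to 0.189% of gene counts in every library.

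**Figure D2:**
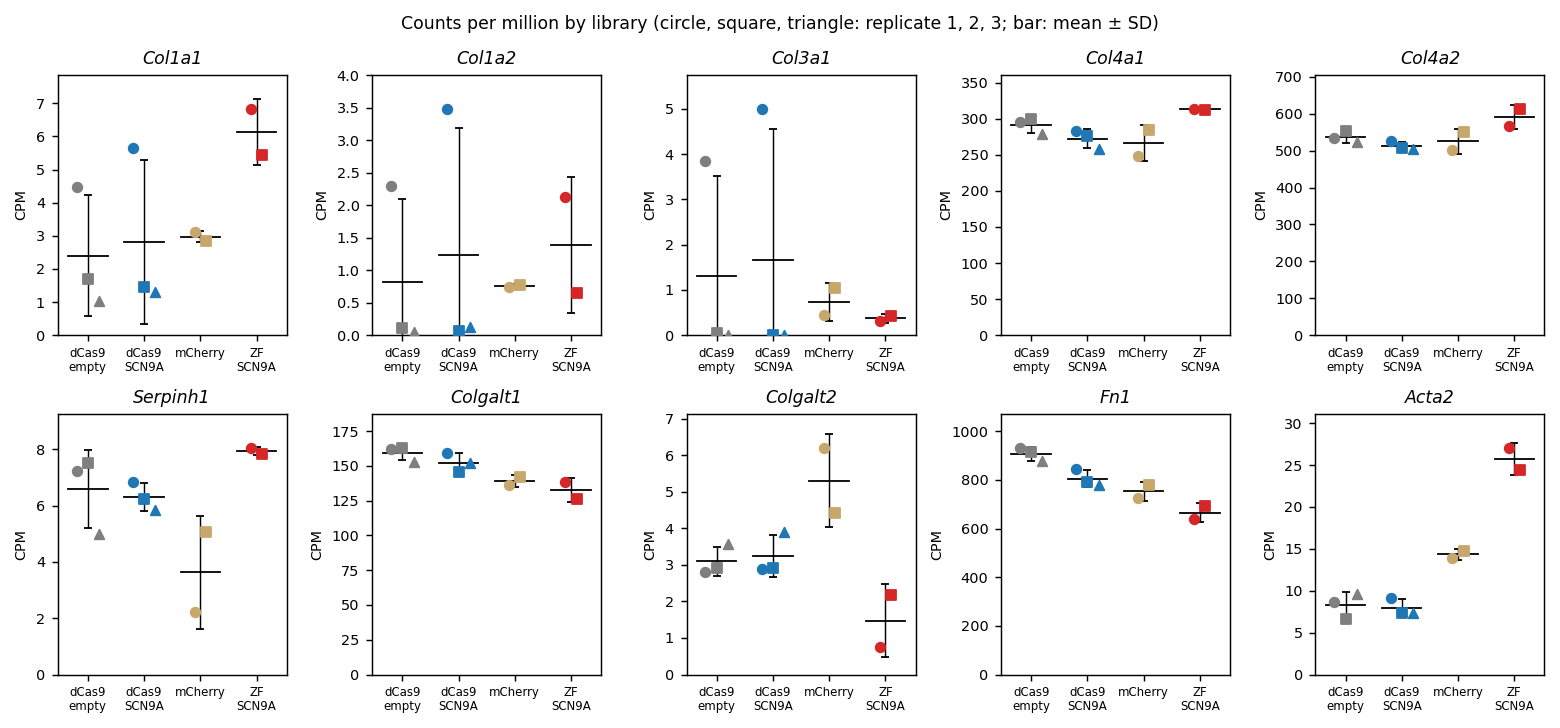
CPM of each gene (vertical axis from 0) in the 4 groups on the horizontal axis; circles, squares and triangles are replicates 1, 2 and 3, bars are means ± SD. The points of ZF-SCN9A lie above those of mCherry for Acta2, Serpinh1, Col1a1, Col4a1 and Col4a2 and below them for Colgalt2, Fn1 and Col3a1.

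In the dCas9 comparison 8 of the 10 genes passed the filter on low counts and 0 were called changed by edgeR at an adjusted p under 0.05. Of all 14628 genes tested, 0.041% were called. At an unadjusted p under 0.05 there was 1 of the 8 genes, Fn1, against 10.1% of all genes. DESeq2 called Fn1 only (it called 1.35% of genes), and limma-voom called 0 of the 8. The median log2 fold change of the 8 was -0.06 against 0.01 over all genes tested. Without both libraries numbered 1 the count was 0 again, with 0.095% of genes called.

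In the zinc-finger comparison the same 8 genes were tested and 5 were called, 4 higher (Acta2, Serpinh1, Col1a1 and Col4a1) and 1 lower (Colgalt2). Of all 12899 genes tested, 4.72% were called, 1.95% higher and 2.78% lower. For 7 of the 8 genes no ZF-SCN9A library lay within the range of mCherry or the reverse, against 45.7% of all genes tested. The genes were chosen with results of these data known, so these counts describe them only. The number of calls rested on single libraries, being 1 and 5 when mCherry replicate 1 or 2 was left out, and 1 and 2 when ZF-SCN9A replicate 1 or 2 was. DESeq2 called 0 of the 7 genes for which it gave an adjusted p, against 1.02% of all genes. limma-voom called 4 of the 8, all but Col1a1 of those named, and 4.28% of all genes.

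**Figure D3:**
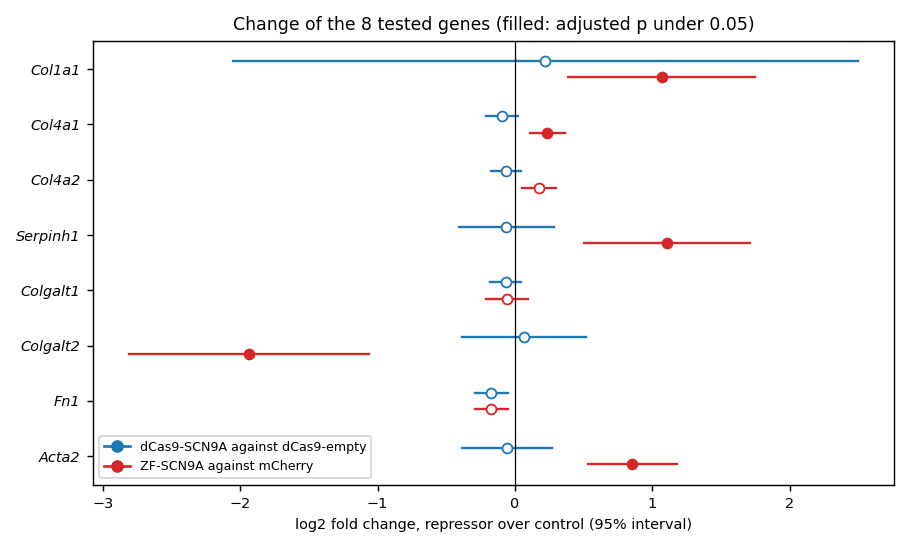
Log2 fold change of repressor over control (horizontal axis) with the 95% interval of edgeR's fit for the 8 tested genes; filled points have an adjusted p under 0.05. All intervals of the dCas9 comparison (blue) include 0 except that of Fn1, and 5 points of the zinc-finger comparison (red) are filled.

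Of the fibrillar chains among the 10 genes, Col1a1, which encodes the alpha 1 chain of type I collagen, was called with the zinc finger. It had 21 and 22 counts in the mCherry libraries (3.10 and 2.85 CPM) and 45 and 25 in the ZF-SCN9A libraries (6.84 and 5.44 CPM). Both ZF-SCN9A libraries lay above both mCherry libraries. Its log2 fold change, 1.07 ± 0.35 (SE), had an adjusted p = 0.0452 by edgeR. This call ended without each of the 4 libraries, where the value was 0.87 to 1.21. It also ended with limma-voom (adjusted p = 0.0607), with DESeq2 (adjusted p = 0.813), with no filter on low counts and with all libraries in 1 fit. With counts from a strand column, which do not separate strands in these libraries, the value was 0.65 (adjusted p = 0.619). In the dCas9 arm Col1a1 had 78, 31 and 18 counts with dCas9-empty and 86, 23 and 20 with dCas9-SCN9A. Replicate 1 was the highest of each group, and the groups overlapped. The log2 fold change was 0.22 ± 0.87 (SE, adjusted p = 0.96 by edgeR), and 0.01 without both libraries numbered 1. Leaving out dCas9-SCN9A replicate 1 alone gave -0.79, and leaving out dCas9-empty replicate 1 alone gave 1.03.

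Col1a2, which encodes the partner chain of type I collagen, had too few counts to be tested. Its counts were 40, 2 and 1 with dCas9-empty, 53, 1 and 2 with dCas9-SCN9A, 5 and 6 with mCherry, and 14 and 3 with ZF-SCN9A. Col3a1 likewise stood at 67, 1 and 0 counts with dCas9-empty, 76, 0 and 0 with dCas9-SCN9A, 3 and 8 with mCherry, and 2 and 2 with ZF-SCN9A. A count of 0 allows a level of up to 0.172 to 0.195 CPM in these libraries (3 counts, counting error only). The ZF-SCN9A libraries overlapped those of mCherry for Col1a2 and lay below them for Col3a1, and neither gene passed when tested without a filter (0.94, adjusted p = 0.837, and -1.04, adjusted p = 0.837, by edgeR).

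Type IV collagen was the most abundant collagen of the 10 genes. Col4a1 had 295, 299 and 278 CPM with dCas9-empty, 283, 277 and 258 with dCas9-SCN9A, 249 and 284 with mCherry, and 314 and 312 with ZF-SCN9A. The ZF-SCN9A libraries were the highest of all 10, by a small margin, and the dCas9 groups overlapped. With the zinc finger Col4a1 rose by 0.24 ± 0.07 on the log2 scale (SE, adjusted p = 0.0116 by edgeR), or 1.18-fold (95% interval 1.08 to 1.29). The call ended without mCherry replicate 1, where the value was 0.15, and without either ZF-SCN9A replicate, and with DESeq2 (adjusted p = 0.387). It also ended with no filter on low counts, with all 10 libraries in 1 fit and with a strand column. With dCas9 the value was -0.09 ± 0.05 (adjusted p = 0.589), and -0.11 without both libraries numbered 1.

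Col4a2, whose chain joins that of Col4a1 in the same triple helix, had 534, 553 and 522 CPM with dCas9-empty and 526, 507 and 505 with dCas9-SCN9A. Its CPM were 501 and 549 with mCherry and 567 and 614 with ZF-SCN9A. As for Col4a1, the ZF-SCN9A libraries were the highest of the 10. The difference from mCherry missed the threshold (log2 fold change 0.17 ± 0.06, adjusted p = 0.0786 by edgeR). It passed in 4 alternative settings and missed in 10. Those passed included a fit with the replicate number as a block. They also included counts from a strand column (0.26, adjusted p = 0.025 by edgeR), which do not separate strands in these libraries. With dCas9 it was -0.06 ± 0.05 (adjusted p = 0.734), and -0.09 without both libraries numbered 1. Counts of Col4a2 were 1.81 to 2.01 times those of Col4a1 in each of the 10 libraries, and 2.04 to 2.27 times per kilobase. The narrow span held in both arms.

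Serpinh1 encodes HSP47, the chaperone that binds folded procollagen in the endoplasmic reticulum. Its counts were low, with 126, 137 and 87 with dCas9-empty, 104, 98 and 90 with dCas9-SCN9A, 15 and 39 with mCherry, and 53 and 36 with ZF-SCN9A. As CPM this was 2.21 and 5.06 with mCherry and 8.06 and 7.83 with ZF-SCN9A. Replicate 1 of mCherry was the lowest of all libraries, and both ZF-SCN9A libraries were the highest. Serpinh1 rose with the zinc finger by 1.11 ± 0.31 on the log2 scale (SE, adjusted p = 0.0124 by edgeR). Without mCherry replicate 1, the lowest library, it was 0.66 (adjusted p = 0.449), and without mCherry replicate 2 it was 1.85 (adjusted p = 0.00103). The call also ended without either ZF-SCN9A replicate and with DESeq2 (adjusted p = 0.673), with all libraries in 1 fit and with a strand column. With dCas9 the value was -0.06 ± 0.16 (adjusted p = 0.935), with a 95% interval of -0.41 to 0.28, and it was -0.06 without both libraries numbered 1.

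The 250 bases before the RefSeq start of Serpinh1 (chr7:99353240-99353489, minus strand, GRCm38) lie outside all annotated exons of the 10 genes. They are shown because Serpinh1 was among the called genes with a promoter window, and the capitals mark the match to GGGCGG, the GC box.
Serpinh1 upstream: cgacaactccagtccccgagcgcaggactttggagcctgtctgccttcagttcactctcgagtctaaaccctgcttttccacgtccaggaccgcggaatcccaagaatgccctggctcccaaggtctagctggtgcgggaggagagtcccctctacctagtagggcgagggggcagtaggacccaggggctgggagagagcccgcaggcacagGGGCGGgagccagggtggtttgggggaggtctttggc
The GC box, searched on both strands, occurred in 35.7% of all 32851 RefSeq windows, which run from 250 bases before to 50 after the start. TATAAA (13.6% of windows), CCAAT (37.4%) and a form of the heat shock element, GAA and TTC spaced by 2 bases (7.86%), were not found in the whole window of Serpinh1. Windows were matched for 7 of the 10 genes, and of these Colgalt1 held the heat shock element and Col3a1 held TATAAA.

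Colgalt1 and Colgalt2 encode enzymes that transfer galactose to hydroxylysine in collagen, and their coding sequences were 68.5% identical over aligned bases. They differed in level and in change. Colgalt2 had 49, 53 and 62 counts with dCas9-empty, 44, 46 and 60 with dCas9-SCN9A, 42 and 34 with mCherry, and 5 and 10 with ZF-SCN9A. The ZF-SCN9A libraries were the lowest and the mCherry libraries the highest of all 10 in CPM, at 0.760 and 2.18 against 6.20 and 4.41. Colgalt2 fell by 1.94 ± 0.44 on the log2 scale with the zinc finger (SE, adjusted p = 0.000918 by edgeR), a ratio of 0.261 to control (95% interval 0.143 to 0.478). The call ended without ZF-SCN9A replicate 1 (-1.26), without mCherry replicate 1 (-1.68) and with a strand column (-1.66, adjusted p = 0.11). The call stayed when the other library of either group was left out (-2.16 and -2.76). With dCas9 the value was 0.07 ± 0.21 (adjusted p = 0.947) with all libraries and 0.07 without both libraries numbered 1.

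Colgalt1 was the more abundant of these enzymes, at 162, 163 and 153 CPM with dCas9-empty, 159, 145 and 152 with dCas9-SCN9A, 136 and 142 with mCherry, and 138 and 126 with ZF-SCN9A. Within each arm the repressor and control libraries overlapped. Its log2 fold change was -0.06 ± 0.08 with the zinc finger (adjusted p = 0.792 by edgeR, 95% interval -0.21 to 0.09) and -0.07 ± 0.05 with dCas9 (adjusted p = 0.731), or -0.09 without both libraries numbered 1. Counts of Colgalt1 were 21.9 to 58.1 times those of Colgalt2 in 9 of the libraries and 182 times in ZF-SCN9A replicate 1, where Colgalt2 had 5 counts.

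Fibronectin was lower with both repressors, but neither difference passed edgeR. Fn1 stood at 932, 913 and 876 CPM with dCas9-empty and at 844, 792 and 781 with dCas9-SCN9A. In the zinc-finger arm the levels were 726 and 779 CPM with mCherry, and 637 and 693 with ZF-SCN9A. In each arm all repressor libraries lay below all control libraries, as was so for 9.33% of genes tested in the dCas9 arm and 23.5% in the zinc-finger arm. The log2 fold changes were -0.17 ± 0.06 with dCas9 (SE, adjusted p = 0.337) and -0.17 ± 0.06 with the zinc finger (adjusted p = 0.0788). With dCas9 the difference passed in DESeq2 (-0.18, adjusted p = 0.0495), and without both libraries numbered 1 it was -0.19 (adjusted p = 0.557). The dCas9 log2 fold changes of all genes ran against exon length (Spearman's rho -0.348 across 14616 genes, which are not independent replicates). The 1047 genes with 0.8 to 1.2 times the exon length of Fn1 had a median of -0.07, and with a correction for exon length the value of Fn1 was -0.10 (adjusted p = 0.672).

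Fn1 gave 43.7% to 47.7% of the counts of the 10 genes in the libraries other than ZF-SCN9A and 37.4% and 38.8% in ZF-SCN9A.

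Acta2, which encodes smooth muscle alpha actin, had the lowest p of the 10 genes with the zinc finger. Its counts were 94 and 114 with mCherry and 178 and 112 with ZF-SCN9A, or 13.9 and 14.8 CPM against 27.1 and 24.4. It stood at 8.63, 6.57 and 9.64 CPM with dCas9-empty and at 9.15, 7.37 and 7.33 with dCas9-SCN9A. The ZF-SCN9A libraries were the highest of the 10, the mCherry libraries came next, and both lay above every dCas9 library. Acta2 rose by 0.86 ± 0.17 on the log2 scale with the zinc finger (SE, adjusted p = 2.99e-05 by edgeR), or 1.81-fold (95% interval 1.44 to 2.27). Of the 5 calls it was the only one to stay without each of the 4 libraries in turn, between 0.77 and 0.92. DESeq2 gave 0.85 with an adjusted p = 0.0879, which missed the threshold. With dCas9 the value was -0.06 ± 0.15 (adjusted p = 0.938), with a 95% interval of -0.38 to 0.27, and -0.14 without both libraries numbered 1.

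**Figure D4:**
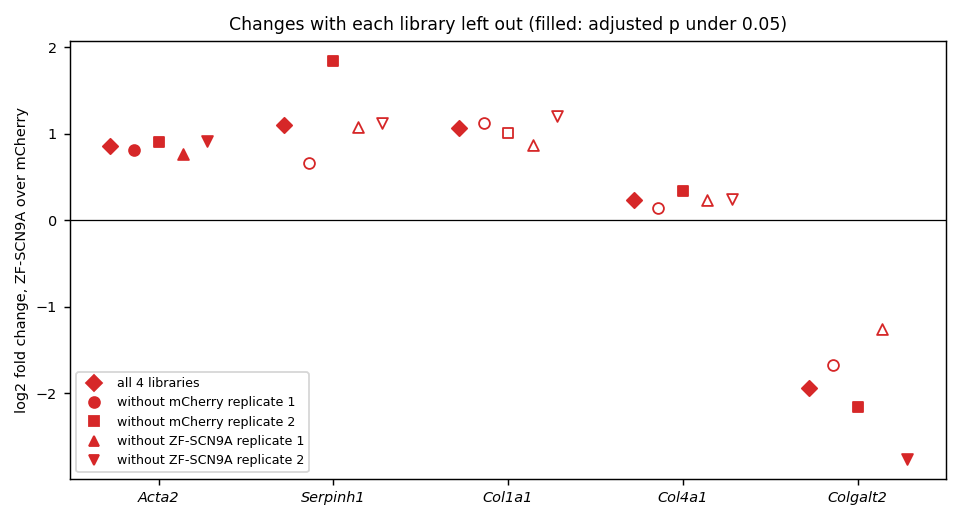
Log2 fold change of ZF-SCN9A over mCherry (vertical axis) for the 5 called genes with all 4 libraries (diamonds) and with each library left out in turn (other symbols); filled symbols have an adjusted p under 0.05. Every symbol of Acta2 is filled, and only the diamond of Col1a1 is.

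Of 7 markers of smooth muscle other than Acta2, 4 had a mean under 1 CPM in each group, and the 7 summed to 35.7 and 37.7 CPM in the mCherry libraries and to 36.3 and 36.8 with ZF-SCN9A. The 3 that were tested, Synpo2, Smtn and Des, stood at -0.11, 0.02 and 0.54 on the log2 scale, none was called by edgeR, and 0 had an unadjusted p under 0.05. Of the 4 low ones, the myosin Myh11 had 6 and 4 counts with mCherry and 2 and 0 with ZF-SCN9A, and the calponin Cnn1 had 0 and 1 against 3 and 2. Lmod1 had 2 and 3 counts against 5 and 0, and Tagln 1 and 2 against 1 and 0. In bulk RNA, more cells with a transcript and more transcript per cell cannot be told apart.

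Serum response factor acts on smooth muscle genes through the CArG box. No match to a strict form of it, with 6 A or T bases between CC and GG, was found in the window of Acta2, against 1.63% of all windows with a match. A looser form with any 6 bases between CC and GG, present in 73.3% of the whole windows, occurred 3 times in the 250 bases before the start, and 30 bases around each are shown with the match in capitals. They lie on the minus strand of chromosome 19 in GRCm38, at chr19:34255522-34255551, chr19:34255438-34255467 and chr19:34255388-34255417.
Acta2 at -168: tgagctgcctCCTGTTTCGGgagcagaaca
Acta2 at -84: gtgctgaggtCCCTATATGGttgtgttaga
Acta2 at -34: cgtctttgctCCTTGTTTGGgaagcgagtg
Positions are counted from the RefSeq start. At -84 the bases between CC and GG are A or T except for a C, and at -34 except for a G. Binding of serum response factor was not tested, so the missing strict match does not show that such a site is absent. Of the 250 bases before the start, 217 lie in an Acta2 exon of the GENCODE annotation. The window may thus not be the promoter used in these cells.

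To compare the repressors, the change with the zinc finger was subtracted from that with dCas9 in 1 fit over all 10 libraries. All 10 genes passed the filter in that fit, and 2 were called by edgeR, Acta2 and Colgalt2. Of all 15766 genes tested, 0.907% were called. Acta2 differed by -0.91 ± 0.22 (SE, adjusted p = 0.0407) and Colgalt2 by 2.01 ± 0.48 (adjusted p = 0.0314). Neither call was kept by DESeq2 (adjusted p = 0.0842 and adjusted p = 0.0615, 1.3% of genes called), limma-voom (0.565% of genes) or a strand column. The number called with 1 library left out ran from 0 (without dCas9-SCN9A replicate 3, mCherry replicate 1 or ZF-SCN9A replicate 1) to 3, and it was 2 without both libraries numbered 1, where 0.875% of all genes were called. For Serpinh1 the difference was -1.16 ± 0.36 (adjusted p = 0.134) and for Col4a1 -0.33 ± 0.09 (adjusted p = 0.0833). For Fn1 it was 0.01 ± 0.09, with a 95% interval of -0.17 to 0.19.

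Other genes of the same pathways were taken from 8 lists of 151 genes. With dCas9, 106 were tested and 0 were called by edgeR, with 12 (11.3%) at an unadjusted p under 0.05, against 10.1% of all genes tested. The lowest p belonged to Tgfbr1, a receptor of TGF-beta, at -0.22 ± 0.05 (adjusted p = 0.173), and it was the 1 gene of these lists that DESeq2 called, and that edgeR called with no filter on low counts. The type VII chain Col7a1 passed only without dCas9-empty replicate 3. Without both libraries numbered 1, 107 genes of the lists were tested with dCas9 and 0 were called. With the zinc finger, 102 were tested and 15 (14.7%) were called, 11 higher and 4 lower. Over all genes tested 4.72% were called, 1.95% higher and 2.78% lower, and the counts of each list below are to be read against these shares. The median log2 fold change of the 102 was 0.05 against 0.00 over all genes tested. The numbers called were 8 and 16 when mCherry replicate 1 or 2 was left out, and 6 and 6 when ZF-SCN9A replicate 1 or 2 was. Of the 15, Col16a1, Sparc and Itgb5 stayed called without each of the 4 libraries in turn and in DESeq2, and DESeq2 called none of the others. Besides the called genes, the pair of highest mean CPM over all 10 libraries is given for each list. In the zinc-finger arm alone the pair was another in 4 of the 8 lists, with Col16a1, P4ha2, Ddr2 and Ski in place of Col18a1, P4ha1, Itga6 and Smad2.

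**Figure D5:**
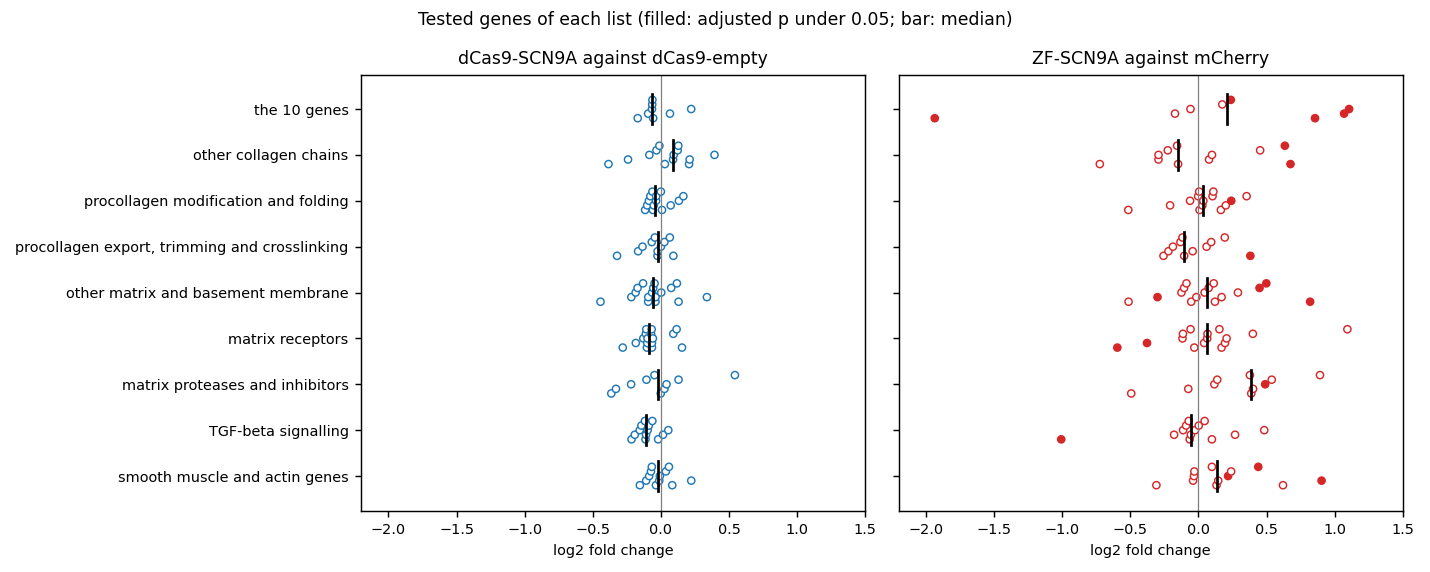
Log2 fold change (horizontal axis) of the tested genes of each list (vertical axis), with dCas9 on the left and the zinc finger on the right; filled points have an adjusted p under 0.05 and bars are medians. No point is filled on the left, and on the right filled points lie on both sides of 0.

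Among 28 other collagen chains, 11 were tested with the zinc finger, 2 rose and 0 fell. Col16a1, a fibril-associated collagen, rose from 30.9 and 35.2 CPM to 49.1 and 56.8 (log2 fold change 0.68 ± 0.12, adjusted p = 3.33e-06 by edgeR). Col5a3, a chain of type V collagen, rose from 12.7 and 13.5 CPM to 19.8 and 20.9 (0.63 ± 0.18, adjusted p = 0.0141). The median of the 11 was nevertheless -0.15. Col7a1 and Col18a1, the highest of the list over all 10 libraries, stood at -0.29 (adjusted p = 0.134) and -0.16 (adjusted p = 0.657).

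Of 15 genes of procollagen modification and folding 14 were tested and 1 rose, the prolyl 4-hydroxylase subunit P4ha2 (0.24 ± 0.06, adjusted p = 0.00889), which stood at 0.11 without mCherry replicate 1. P4hb and P4ha1, the highest over all 10 libraries, stood at 0.01 and 0.03. Of 18 genes of procollagen export, trimming and crosslinking 11 were tested and 1 rose, Pcolce, which enhances the removal of the C-propeptide (0.38 ± 0.09, adjusted p = 0.00177). The export genes Mia3 and Sar1a, likewise the highest of theirs, stood at 0.06 and -0.19 (adjusted p = 0.728 and adjusted p = 0.108). The list medians were 0.03 and -0.11.

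Of 25 other matrix and basement membrane genes 16 were tested, 3 rose and 1 fell. Sparc, a collagen-binding matricellular protein, rose from 190 and 183 CPM to 257 and 249 (0.45 ± 0.07, adjusted p = 2.67e-08 by edgeR). Its relative Sparcl1 (0.82 ± 0.20, adjusted p = 0.00189) and elastin, Eln (0.50 ± 0.13, adjusted p = 0.00712), also rose, and the laminin chain Lama4 fell by 0.30 ± 0.08 (adjusted p = 0.0103). Agrn and Fbln1 stood at 0.04 and -0.13. Sparc also differed between the repressors, by -0.48 ± 0.10 (adjusted p = 0.005), a call that ended without mCherry replicate 2 and without ZF-SCN9A replicate 1 (adjusted p up to 0.0892).

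Of 17 matrix receptors 15 were tested, 0 rose and 2 fell. The integrin subunit Itgb5 fell from 88.6 and 92.2 CPM to 57.9 and 61.6 (-0.60 ± 0.10, adjusted p = 9.51e-08 by edgeR), and Itgb3 by 0.38 ± 0.11 (adjusted p = 0.0222). Itgb1 and Itga6 stood at -0.03 and 0.06. Itgb5 differed between the repressors by 0.54 ± 0.10 (adjusted p = 0.0022), which ended without ZF-SCN9A replicate 1 (adjusted p = 0.0779).

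Of 14 matrix proteases and inhibitors 10 were tested and 1 rose, the metalloproteinase Mmp11 (0.49 ± 0.12, adjusted p = 0.00146), while Timp2 stood at 0.14 (adjusted p = 0.589). Of the 13 tested genes of TGF-beta signalling 1 fell, Tgfb1, which encodes the ligand TGF-beta 1. Its CPM were 14.9 and 17.4 with mCherry, then 9.12 and 6.53 with ZF-SCN9A (-1.01 ± 0.21, adjusted p = 0.000192 by edgeR). In the dCas9 arm it had 36.4 to 43.6 CPM. The groups of the zinc-finger arm did not overlap, and the call ended without ZF-SCN9A replicate 2 (adjusted p = 0.0602) and with DESeq2 (adjusted p = 0.174). Tgfb1 differed between the repressors by 1.03 ± 0.21 (adjusted p = 0.00691), a call that ended with limma-voom (adjusted p = 0.101) and without replicate 2 of mCherry or of ZF-SCN9A (adjusted p up to 0.132). Tgfbr1 and Smad2 stood at -0.03 and -0.09 with the zinc finger.

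Of 12 tested smooth muscle and actin genes other than Acta2, 3 rose with the zinc finger. They were Tagln2 (0.22 ± 0.06, adjusted p = 0.0148), the calponin Cnn2 (0.44 ± 0.09, adjusted p = 0.000257) and the myosin light chain Myl9 (0.90 ± 0.27, adjusted p = 0.021). The cytoplasmic actins Actb and Actg1 stood at 0.13 (adjusted p = 0.204) and 0.10 (adjusted p = 0.43). The genes for serum response factor, Srf, and its cofactors Mrtfa and Mrtfb stood at 0.24, -0.03 and -0.31, of which none passed.

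Once the means of the 2 arms were removed, log2 CPM over the 10 libraries was most alike between Col4a1 and Serpinh1 (Pearson's r = 0.914) and between Col4a1 and Col4a2 (r = 0.905) among the tested genes of the 10. Colgalt2 ran opposite to Serpinh1 (r = -0.819), Acta2 (r = -0.798) and Col4a1 (r = -0.792). Fn1 was most like Colgalt1 (r = 0.589). The libraries share depth and the repressor contrast, so these values are a description. Of all other genes the most alike were Ccdc40 (r = 0.993), Pax5 and Lclat1 for Acta2, and Kazald1 (r = 0.986), Gm12299 and Nme4 for Serpinh1. They were Snx11 (r = 0.977), Shisa3 and Eif4enif1 for Colgalt2, Fndc3b (r = 0.973), Mtmr9 and Sptbn1 for Fn1, and Ston2 (r = 0.949), Pxmp2 and Aebp2 for Colgalt1. They were Lrrc61 (r = 0.983), Hk2 and Rgs4 for Col4a1, Tbc1d5 (r = 0.965), Echs1 and Naip2 for Col4a2, and Lyrm7 (r = 0.908), Elp4 and Nsun3 for Col1a1.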

How the data were processed

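The deposited values are raw, unnormalised read counts per gene for each of 10 libraries, laid out as STAR writes them, with an unstranded column and 2 columns by strand. The tools named in the submitters' processing notes are bcl2fastq 2.20, STAR 2.7.3a and DESeq2, with build GRCm38. No source used here gives the authors' annotation release or counting settings. Because the strand columns held near-equal numbers of reads, the unstranded column was analysed. Counts from a strand column therefore do not separate strands, and they serve only as an alternative on part of the reads. Of the 55401 identifiers, 55141 were found in GENCODE M21. Entries that name no gene (25.0% to 28.2% of reads) and 4 plasmid entries were left out of library sizes and tests.

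Counts were tested with edgeR 4.0.16 (limma 3.58.1, R 4.3.3): TMM scaling, filterByExpr, a robust quasi-likelihood fit, two-sided p-values and Benjamini-Hochberg adjustment over all genes tested. Each repressor was set against its own control, and the difference of changes was tested over all libraries. For 88% of genes in the zinc-finger fit the prior degrees of freedom were infinite, so their p-values rest on spread shared across genes. CPM use TMM over all 10 libraries, and exon lengths are unions of GENCODE exons. Alternatives were DESeq2 1.42.0 and its size factors, limma-voom, other filters, all libraries in 1 fit, the replicate block, a strand column, an exon length correction (alone and with the block) and leaving out each library. Leaving out both libraries numbered 1 was added after the data were seen. No replicate pair was within sampling noise of being a copy.

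On simulated counts of the dCas9 comparison (14468 genes tested), 93.9% of 99 genes changed 2-fold and 81.8% of 99 changed 1.5-fold were recovered, with 8 false calls. In the zinc-finger comparison (12717 genes) the shares were 78.8% and 69.7%, with 4 false calls. The simulation gave all genes of a comparison the same dispersion and held no effect of replicate number. Recovery under spread that differs between genes, or at the low counts of Col1a1, Serpinh1 and Colgalt2, was not tested. The genes and lists were chosen with earlier results of these data known. Named are the 10 genes, called genes of each list (at most 8) and the 2 most abundant genes of each list. Scn9a and the 3 genes most alike to each tested gene of the 10 are named too. Tgfbr1 and Col7a1 with dCas9, Srf, Mrtfa, Mrtfb, Myh11 and the genes of the search over libraries numbered 1 were added after their values were seen. So were Lox, Col6a3, Col5a2, Thy1, Lum and Fap. Markers were of fibroblasts, smooth muscle, endothelium and neuroblastoma. The 6 endothelial markers summed to 48.6 to 100.3 CPM over all libraries, and Emcn had no count in any. Group means were 32.44 to 68.15 CPM for Vwf and 15.48 to 22.83 for Pecam1. Sequences come from RefSeq promoter windows and GENCODE M21 transcripts, both on GRCm38.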

Additional observations from a re-analysis of the deposited data

Results flagged for a closer look

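The change with dCas9 differed from the change with the zinc finger for Acta2 by -0.91 on the log2 scale (edgeR, adjusted p = 0.0407). For Colgalt2 it differed by 2.01 (edgeR, adjusted p = 0.0314). Both were tested as the contrast of the changes over all 10 libraries. The arms also differed in control plasmid and depth, which cannot be told apart from the kind of repressor.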

How the results depend on the processing

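With dCas9, 6 genes were called in all. The count was 172 with no filter, 69 with DESeq2, 29 with all 10 libraries in 1 fit, 2 with an exon length correction, 95 with that correction and the replicate block, and 14 without both libraries numbered 1. Of the 10 genes, 1 (Fn1) was called with DESeq2 instead of 0. With the zinc finger 609 genes were called in all, against 115 with DESeq2, 348 with all 10 libraries and 275 with a strand column. Of the 10 genes 5 were called, against 3 with no filter (Acta2, Colgalt2 and Serpinh1) and 0 with DESeq2. With all 10 libraries 2 were called (Acta2 and Colgalt2), and with a strand column 2 (Acta2 and Col4a2). Col4a2 was not among the 5, so Acta2 alone of them stayed called with a strand column. For the difference of the changes 2 were called, against 4 with no filter and 0 with DESeq2, limma-voom or a strand column. DESeq2 gave no adjusted p for Colgalt2 with the zinc finger, or for Col1a1, Serpinh1, Colgalt2 and Acta2 with dCas9.

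With 1 library left out, the number called of the 10 genes ran from 1 to 5 with the zinc finger, from 0 to 3 for the difference, and was 0 throughout with dCas9. All genes called ran from 1 to 34 with dCas9 and from 201 to 787 with the zinc finger. Directions that turned were of values not called. With a strand column the dCas9 values were 0.17 for Serpinh1, 0.061 for Colgalt1 and 0.061 for Acta2. The difference for Colgalt1 was 0.0005 with a filter at 1 CPM, 0.0004 with the replicate block and 0.15 with a strand column, and that for Fn1 was -0.0005 with the size factors of DESeq2 and -0.0071 without both libraries numbered 1. With 1 library left out the dCas9 values spanned -0.22 to 0.049 for Serpinh1, -0.79 to 1.03 for Col1a1, -0.195 to 0.076 for Acta2 and -0.081 to 0.19 for Colgalt2. The zinc-finger value of Colgalt1 spanned -0.13 to 0.0013. The differences spanned -3.91 to 2.74 for Col1a2, -5.94 to 6.49 for Col3a1, -0.062 to 0.072 for Colgalt1 and -0.051 to 0.067 for Fn1. The causes were not tested.

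Same-numbered dCas9 libraries deviated together with correlations of 0.241, 0.166 and 0.0396, and 5 of the 6 libraries correlated best with their own number (dCas9-empty replicate 3 did so with dCas9-SCN9A replicate 2, at 0.102). The labels do not say what a number marks. With the replicate block 262 genes were called with dCas9, of the 10 genes 1 (Fn1), and 4 of them for the difference (Acta2, Col4a1, Colgalt2 and Serpinh1). Of the other lists it called 3 with dCas9 in place of 0 (Dag1, Lamc1 and Tgfbr1) and 9 for the difference in place of 3. With the zinc finger, where the correlation was 0.0639, the block added Col4a2 and Fn1 and ended the call of Col1a1 (adjusted p = 0.0741).

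Depth limits the fibrillar chains among the 10 genes and Colgalt2, and with 2 libraries a group the zinc-finger calls lean on spread shared across genes.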
